A study of Mus musculus with 2 samples.

Results

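The fibrillar collagen genes followed across the sorted kidney cells were Col1a1, Col1a2, Col3a1, Col5a1, Col5a2, Col5a3 and Col27a1. They were found by gene symbol and are 7 of the 53698 gene entries in each library. The cells came from kidneys of FVBN mice, were released with Liberase TL and DNAse, and are labelled PDGFRa+b+, after a pair of growth factor receptors on the surface of fibroblasts and pericytes. One library is labelled sham and the other UUO, for unilateral ureteral obstruction, with the kidney taken at day 10 after an operation that blocks urine outflow and serves as a model of kidney fibrosis. Both were made with 10x Chromium version 2 chemistry, which tags captured transcripts near the 3′ end with a unique molecular identifier (UMI), so UMI counts were not scaled by transcript length. How well each gene is captured was not measured, so UMI ratios between genes need not be ratios of transcripts. The labels give no age, sex, genotype beyond the strain, or number of animals, and there is 1 library per group.

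Fibrillar collagens are secreted as procollagen trimers, trimmed outside the cell and laid into the rope-like fibrils that give tissue its strength. Type I collagen joins Col1a1 chains with a Col1a2 chain and is the main fibril of scar, type III is a trimer of Col3a1 alone, and type V, built from Col5a1, Col5a2 and Col5a3, starts fibrils and limits their width. Col27a1 encodes a fibrillar chain best known from cartilage, and in the kidney interstitium fibroblasts are the main source of types I, III and V.

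The 2 libraries differ in size and depth, and some injury genes ran against the labels. The sham-labelled library had 10812 barcodes and 85359332 UMIs, and the UUO-labelled library had 1291 barcodes and 6023072 UMIs. After filters, 7979 and 719 cells formed the fibroblast class, with median depths of 8279 and 4847 UMIs per cell. A cell was placed in a class when it had at least 3 UMIs of the markers of that class and at least 2 times those of any other class. The libraries shared 16 barcodes, 7 of them in the fibroblast class of both. Spp1, the gene of osteopontin, a protein that injured kidney makes, stood in the fibroblast class at 12467 CPM (UMIs of the gene per 1000000 UMIs of the class) in the sham-labelled library and at 176 CPM in the UUO-labelled library. Timp1, an inhibitor of matrix proteases that goes with fibrosis, stood at 717 and 67.5 CPM. Acta2, a gene of contractile myofibroblasts, stood at 1530 and 333 CPM. Postn, a matrix gene of activated fibroblasts, ran the other way, at 79.8 and 150 CPM. Because Spp1, Timp1 and Acta2 went against the labels, groups are named as labelled and no difference is read as the result of obstruction. Intervals are exact, at 95%, and cover counting error alone, so they hold no information on how animals vary.

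The fibroblast class matched the sort in part. Pdgfra, itself a class marker, had a UMI in 76.2% of fibroblast-class cells labelled sham and 62.0% of those labelled UUO, and Pdgfrb, not used for the class, in 80.5% and 46.9%. The retained cells also held classes outside fibroblasts and pericytes: 378 and 66 endothelial cells, 25 and 88 proximal tubule cells, and, in the sham-labelled library, 301 macrophage or dendritic cells and 215 loop or distal tubule cells. Proximal tubule markers reached 841 CPM in fibroblast-class cells labelled UUO against 19.8 CPM in those labelled sham, and erythroid markers 6332 against 136 CPM. The erythroid sum labelled UUO was uneven over cells, with a median of 2 and a 90th percentile of 5 UMIs per cell. A limit of 1% haemoglobin per cell was among the later alternatives. The part of such RNA in the collagen values was not tested.

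The genes lie on 6 chromosomes of GRCm38 (mm10), as annotated in GENCODE M21. Col1a1 spans chromosome 11 (94936224 to 94953042, plus strand). Col1a2 spans chromosome 6 (4504814 to 4541544, plus strand). Col3a1 (chromosome 1, 45311538 to 45349706, plus strand) and Col5a2 (chromosome 1, 45374321 to 45503282, minus strand) face each other tail to tail, with 24614 bases between their 3′ ends. Col5a1 lies on chromosome 2 (27886425 to 28039514, plus strand). Col5a3 lies on chromosome 9 (20770050 to 20815067, minus strand) and Col27a1 on chromosome 4 (63214004 to 63334991, plus strand). All 7 are protein-coding genes, and each deposited value of a member was a whole number at a tolerance of 1e-06. Gm38211, a gene model still to be verified on the same strand inside the span of Col5a2, carried 1449 UMIs labelled sham and 21 labelled UUO over all barcodes, so reads near it could have been credited to either. Col5a2 itself had 24734 and 320 UMIs over the retained cells, many times more in each library.

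Of the 7 members, 5 had an entry among 32851 RefSeq promoters (GRCm38.p6), and the 250 bases before the RefSeq start are printed for a pair. Col3a1 is shown because it had the highest level of the members in both libraries, and Col5a3 because it was the one member with a higher level in the UUO-labelled library. Capitals mark CCAAT (the CCAAT box), TATAAA (the TATA box), GGGCGG (the GC box) and CAGAC (the SMAD element), searched on both strands, so that a reverse complement also appears in capitals. None of these letter strings contains another. The windows are chr1:45311288-45311537 (plus strand) for Col3a1 and chr9:20815068-20815317 (minus strand) for Col5a3, each written 5′ to 3′.
Col3a1: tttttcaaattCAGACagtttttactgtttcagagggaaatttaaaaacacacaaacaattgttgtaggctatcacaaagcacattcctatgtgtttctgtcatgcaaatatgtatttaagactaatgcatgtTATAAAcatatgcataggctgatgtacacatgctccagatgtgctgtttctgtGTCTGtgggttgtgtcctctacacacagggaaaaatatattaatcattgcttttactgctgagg
Col5a3: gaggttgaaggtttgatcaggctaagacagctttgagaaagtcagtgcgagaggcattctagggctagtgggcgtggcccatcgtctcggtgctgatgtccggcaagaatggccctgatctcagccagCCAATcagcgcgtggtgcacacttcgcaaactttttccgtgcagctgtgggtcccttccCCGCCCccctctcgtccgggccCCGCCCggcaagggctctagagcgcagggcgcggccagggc
The Col3a1 window was the only one of the 5 matched members with TATAAA, 117 bases before the start, and held 2 SMAD elements and no GC box, with 35.2% G and C, a content below that of all but 5.0% of promoters. The Col5a3 window held a CCAAT box 122 bases before the start and 2 GC boxes, with 62.8% G and C. Among all promoters of this length, CCAAT was found in 33.8%, TATAAA in 12.4%, GGGCGG in 32.7% and CAGAC in 42.2%. A match describes the letters only. The RefSeq start of Col1a2 lies inside its GENCODE span, and 127 of the 250 bases before it are annotated as untranslated exon there, so that window is not shown. Col1a1 and Col5a2 were not matched.

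The 3 major chains dominated the family in both libraries. In fibroblast-class cells labelled sham, Col3a1 was highest at 3682 CPM (3668 to 3697), followed by Col1a2 at 2573 (2561 to 2585) and Col1a1 at 2413 (2402 to 2425). Col5a2 followed at 354.8 CPM (350.2 to 359.4), Col5a1 at 134.7 (132.0 to 137.6), Col27a1 at 28.0 (26.8 to 29.4) and Col5a3 at 8.52 (7.82 to 9.25). No neighbours in this order had overlapping intervals. Fibroblast-class cells labelled UUO also had Col3a1 on top at 1895 CPM (1854 to 1937), then Col1a1 at 1542 (1505 to 1580) and Col1a2 at 1444 (1408 to 1480). Col5a1 at 70.1 CPM (62.3 to 78.5) and Col5a2 at 69.6 (61.9 to 78.0) could not be told apart, and Col5a3 at 22.4 (18.1 to 27.4) and Col27a1 at 14.4 (11 to 18.5) had intervals that touched. Together the members made up 0.919% of fibroblast-class UMIs labelled sham and 0.506% of those labelled UUO.

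**Figure D1:**
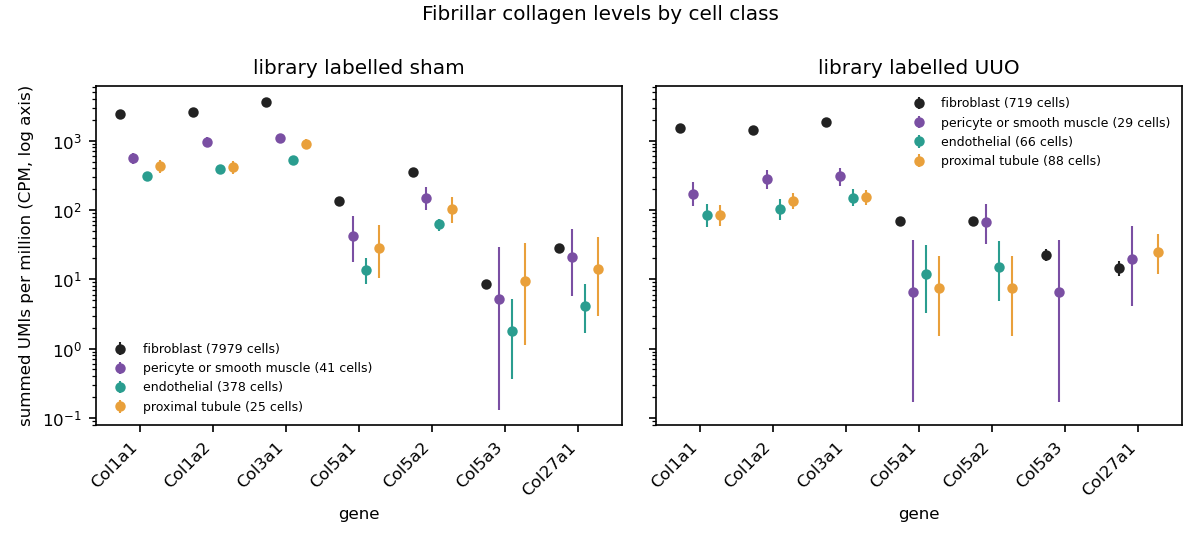
Summed CPM (log axis) of each gene in 4 cell classes of each library, with exact 95% Poisson intervals as lines. Fibroblast-class points stand above the others for the major chains, at 2413 to 3682 CPM in the sham-labelled library and 1444 to 1895 CPM in the UUO-labelled library, and genes without a UMI in a class are not drawn.

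Every other class carried the 3 major chains at a lower level. Endothelial cells, which are not known as a source of fibrillar collagen, held Col1a1 at 315 CPM (289 to 343), Col1a2 at 385 (356 to 415) and Col3a1 at 526 (492 to 562) in the sham-labelled library. Those labelled UUO held Col1a1 at 84.8 CPM (56.4 to 123), Col1a2 at 103 (71.3 to 144) and Col3a1 at 151 (112 to 200). The summed members in the endothelial class were 14.2% of the fibroblast-class level in the sham-labelled library and 7.25% in the UUO-labelled library. Macrophage or dendritic cells labelled sham stood at 19.6%, T or NK cells at 15.1%, loop or distal tubule cells at 10.5% and proximal tubule cells at 20.8%. Proximal tubule cells labelled UUO stood at 8.21%. Col27a1 was the exception in that class, at 24.9 CPM (11.9 to 45.7) from 10 UMIs, an interval that covers part of the fibroblast-class interval. It also stood nearer its fibroblast-class level in some other classes. Labelled sham, it was at 50.3% in loop or distal tubule cells (35 UMIs) and 49.2% in macrophage or dendritic cells (21 UMIs), but 14.9% in endothelial cells (7 UMIs). In pericytes and smooth muscle cells it was at 74.2% labelled sham and 138% labelled UUO, from only 4 and 3 UMIs. Free RNA and transcripts of the cells themselves were not separated, and these levels are given as the background of the fibroblast values.

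The fibroblast class exceeded the endothelial class for each member, as far as counts allowed. All 7 were at least 1.5-fold higher in the sham-labelled library (5 CPM added to each level), where 15.7% of 9555 genes were that much higher. The ratio was 7.66 (7.04 to 8.36) for Col1a1, 6.69 (6.19 to 7.24) for Col1a2, 7.0 (6.55 to 7.48) for Col3a1 and 9.84 (6.55 to 15.5) for Col5a1. Col5a3 had 3 endothelial UMIs there and a ratio of 4.77 (1.62 to 23.2), and lay under the minimum of 10 CPM set for the genes tested. All 7 were also at least 1.5-fold higher in the UUO-labelled library, where 20.3% of 10304 genes were, but Col5a3 and Col27a1 had no endothelial UMI. Against 3 counts over that class, Col5a3 was at least 2.46-fold higher and Col27a1 at least 1.58-fold higher. With 5 CPM added, the log2 ratio of Col27a1 at that bound is 0.46, which is under 1.5-fold. The median log2 ratio of the members was 2.73 in the sham-labelled library, beside -0.11 over all genes. It was 2.45 in the UUO-labelled library, or 2.13 with the members at 0 set to their bound, beside -0.15 over all genes. The class rule used no collagen, but markers such as Dcn and Lum are known to go with collagen, so the contrast is a description.

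Pericytes and smooth muscle cells came closest to fibroblasts among the named classes. The 41 cells labelled sham held summed members at 2825 CPM (2592 to 3073), or 30.7% of the fibroblast-class level, and the 29 labelled UUO at 856 CPM (714 to 1017), or 16.9%. Their chains were uneven. Col1a1 stood at 23.1% of its fibroblast-class level in pericytes labelled sham and Col1a2 at 37.6%. The ratio of Col1a1 to Col1a2 UMIs was 0.575 (0.449 to 0.734) in that class against 0.938 (0.932 to 0.945) in fibroblasts of the same library. In the UUO-labelled library the pericyte ratio was 0.619 (0.364 to 1.03), from 26 and 42 UMIs, against 1.07 (1.03 to 1.11) in fibroblasts. A ratio under that of fibroblasts was not particular to pericytes. In the sham-labelled library it was 0.767 (0.683 to 0.861) in loop or distal tubule cells, 0.813 (0.733 to 0.900) in macrophage or dendritic cells and 0.819 (0.729 to 0.920) in endothelial cells, and in the UUO-labelled library 0.618 (0.391 to 0.965) in proximal tubule cells. With 41 and 29 pericytes, a few cells of another type could move these values.

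Single fibroblast-class cells nearly all carried the major chains in the sham-labelled library. A Col3a1 UMI was found in 99% of them, Col1a1 in 98.5%, Col1a2 in 98.4%, Col5a2 in 80.7%, Col5a1 in 56.5%, Col27a1 in 19.2% and Col5a3 in 6.08%. The shares labelled UUO were 83.9% for Col3a1, 83.6% for Col1a2 and 80.5% for Col1a1, then 28.5% for Col5a1, 24.8% for Col5a2, 8.07% for Col5a3 and 7.79% for Col27a1. Depth differs between the libraries, and after thinning each cell to 1000 UMIs (114 and 67 shallower cells left out) the shares were 83.1% and 58.0% for Col1a1, 89.5% and 62.9% for Col3a1, and 29.1% and 5.83% for Col5a2. Col5a3 then stood at 0.699% and 2.15%. The endothelial background at this depth was 26.7% and 5.17% for Col1a1, 46.8% and 15.5% for Col3a1, and 7.24% and 1.72% for Col5a2. For Col5a3 that background was 0.279% (0.00705% to 1.54%) in the sham-labelled library and 0 of 58 cells (up to 6.16%) in the other, so at this depth its share could not be told from background. At full depth, endothelial cells (median 3914 and 4822 UMIs) had a Col1a1 UMI in 62.7% and 31.8%, and a Col5a3 UMI in 0.529% (0.0641% to 1.90%) and in 0 of 66 (up to 5.44%). Col3a1 was found in 83.9% of endothelial cells labelled sham. Loop or distal tubule cells labelled sham, with a median of 9755 UMIs, had a Col3a1 UMI in 92.6%, Col1a2 in 81.4% and Col1a1 in 72.6%. A high share of cells with a UMI of a major chain was therefore not particular to fibroblasts at full depth.

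The amount per cell had a long upper tail. Members took a median of 0.770% of the UMIs of a fibroblast-class cell labelled sham, with quartiles of 0.532% and 1.13% and a highest cell of 11.8%. The median labelled UUO was 0.319%, with quartiles of 0.147% and 0.580% and a highest cell of 3.38%. The 10% of cells with most held 30.9% of all member UMIs in the sham-labelled library and 43.6% in the UUO-labelled library. The distributions overlapped: the upper quartile labelled UUO lay below the median labelled sham but above its lower quartile.

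**Figure D2:**
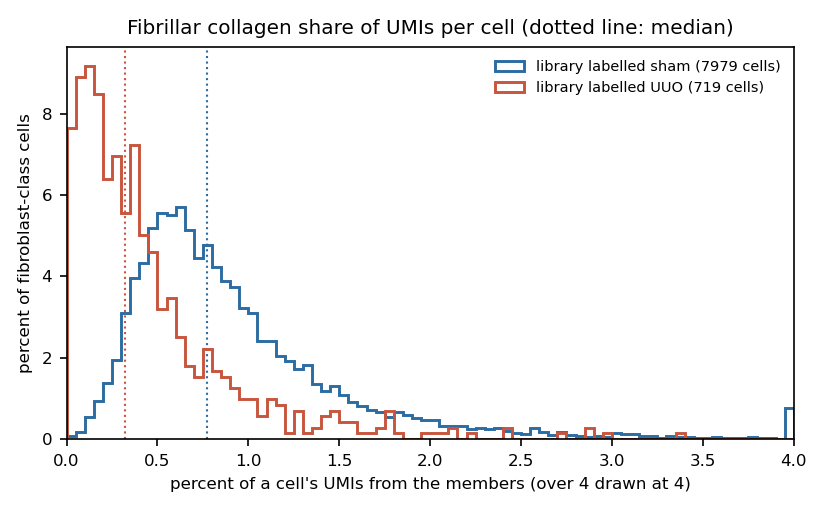
Histogram of the share of the UMIs of each fibroblast-class cell that came from the 7 genes (percent, cells above 4% drawn at 4%), as percent of cells in each library, with dotted lines at the medians. The UUO-labelled library piles up near its median of 0.319%, and the sham-labelled library is centred on 0.770% with a tail to higher shares.

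Of the 7 members, 6 were at least 1.5-fold lower in the fibroblast class labelled UUO than in that labelled sham, and 1 was higher. Over all genes tested, 12.4% of 9612 were that much lower and 19.5% that much higher. Col1a1 was 1.57-fold higher (1.53 to 1.60) in the sham-labelled library, Col1a2 1.78-fold (1.74 to 1.83) and Col3a1 1.94-fold (1.90 to 1.99). Type V chains split. Col5a1 was 1.92-fold higher (1.71 to 2.17) in the sham-labelled library and Col5a2 5.10-fold (4.54 to 5.74). Col5a3, the chain of a rarer form of type V, was 2.63-fold higher (2.09 to 3.28) in the UUO-labelled library, from 95 against 559 UMIs. Col27a1 was 1.95-fold higher (1.51 to 2.56) in the sham-labelled library, from 1841 against 61 UMIs. Col1a1 lay nearest the threshold, with a log2 ratio (UUO over sham, 5 CPM added) of -0.64. It came within 1.5-fold in cells with Xist UMIs (-0.55), when scaled by the median ratio (-0.57), without the shallow clusters described later (-0.53) and with the endothelial level subtracted (-0.53). Col27a1 did so in cells with Xist UMIs (-0.18) and with the endothelial level subtracted (-0.57). The median log2 ratio of the members on this scale was -0.83, beside -0.02 over all genes. With 1 library a side, the group, the animals and the library cannot be told apart. Fewer collagen-rich cells cannot be told from less collagen RNA per cell in these sums.

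Cells that carried Xist UMIs and no Y-linked UMI, and cells of the opposite kind, occurred in both libraries. They were 57.3% and 17.0% of the fibroblast class labelled sham and 25.7% and 28.5% of that labelled UUO. Cells with Xist and Y-linked UMIs together were 12.3% labelled sham and 10.4% labelled UUO, with summed members at 10080 and 5457 CPM. Cells with neither were 13.5% and 35.3%, with median depths of 3937 and 2205 UMIs. Summed members stood at 8869 CPM in Xist cells and 9444 CPM in Y-linked cells labelled sham, and at 5103 and 4951 CPM in those labelled UUO. In both kinds of cell the sum was higher in the sham-labelled library. Col27a1 was less alike, with a log2 ratio (UUO over sham) of -0.18 in Xist cells and -1.24 in Y-linked cells, from 28 and 13 UMIs labelled UUO.

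Chain balance in the summed fibroblast class differed between the libraries. Per Col1a2 UMI there were 0.938 Col1a1 UMIs (0.932 to 0.945) labelled sham and 1.07 (1.03 to 1.11) labelled UUO. With equal weight for each cell these became 1.01 and 1.13, so the side of 1 on which the sham-labelled ratio falls depends on the weighting. Per Col1a1 UMI there were 1.53 Col3a1 UMIs (1.52 to 1.54) and 1.23 (1.19 to 1.27). Per Col5a2 UMI there were 0.380 Col5a1 UMIs (0.371 to 0.389) and 1.01 (0.854 to 1.19), the widest gap among the 3 ratios. The Col3a1 per Col1a1 difference was not uniform over the clusters described later. It ran the other way between sham cluster 7 at 1.27 (1.24 to 1.30) and UUO cluster 3 at 1.79 (1.69 to 1.90). Sham cluster 1 at 1.21 (1.20 to 1.23) and UUO cluster 1 at 1.32 (1.20 to 1.45) had intervals that overlapped. Sham cluster 2 at 1.74 stood above UUO cluster 1, and sham cluster 10 at 0.600 above UUO cluster 5 at 0.449. UMI ratios are not ratios of protein chains.

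The same balance was read in single cells with enough UMIs of a pair. Among 5648 cells labelled sham with at least 20 UMIs of Col1a1 and Col1a2, Col1a1 made up a median of 47.8% of the pair, and 80% of cells lay between 34.8% and 60.9%. The SD over cells was 10.3 percentage points, against 7.95 that counting alone would give. For the 221 such cells labelled UUO the median was 54.4% and the SD 13.0 against 8.52. Col3a1 made up a median of 60.4% of the Col3a1 and Col1a1 UMIs in 6028 cells labelled sham (SD 12.3 against 7.41) and 54.2% in 229 labelled UUO (SD 17.1 against 8.23). No cell that passed this minimum lacked Col1a1 or Col1a2, and in the Col3a1 and Col1a1 pair 1 cell labelled sham lacked Col1a1. Of 2689 cells labelled sham with at least 5 UMIs of Col5a1 and Col5a2, 366 had no Col5a1 UMI and 1 had no Col5a2 UMI, with an SD of 18.6 against 16.6 from counting. The minimum keeps deeper and collagen-rich cells.

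Across fibroblast-class cells the major chains varied together in each library. Pearson's r of log-normalised values was 0.61 for Col1a1 and Col1a2 over 7979 cells labelled sham and 0.60 over 719 labelled UUO. For Col1a1 and Col3a1 it was 0.61 in both, and for Col1a2 and Col3a1 0.53 in both. Col5a2 followed Col3a1 at 0.43 and 0.32. Pairs with Col5a3 or Col27a1 lay between -0.02 and 0.24, in sparse counts from which nothing is read. Cells of 1 library share its depth, free RNA and animals, and depth and cell number differ between the libraries, so these values are descriptions and their difference was not tested.

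Among 2483 genes with a UMI in at least 25% of fibroblast-class cells of both libraries, Serpinf1 was most like the summed members, with a mean r of 0.41 over the 2 libraries. Serpinf1, a secreted serpin, was followed by Ccdc80, a secreted matrix-binding protein (0.37), and Col6a1, a chain of type VI collagen (0.36). Adamts2, the protease that removes the N-terminal propeptide of procollagen, had 0.34, as did Serpinh1, the collagen chaperone of the endoplasmic reticulum. Gsn, Pcolce, Fbln1, Pdgfrl and Mfap5 completed the 10 at 0.31 to 0.33, of which Pcolce enhances removal of the C-terminal propeptide. Serpinf1 and Fbln1 are markers of the class. These r values come from cells within each library. Between the libraries, Serpinf1 was 5.39-fold higher (5.21 to 5.58) and Fbln1 4.04-fold (3.91 to 4.17) in the fibroblast class labelled UUO, opposite to most members. Pcolce, Adamts2 and Serpinh1 lay within 1.5-fold. Postn ranked 17, Pdgfra 113, Acta2, a gene of contractile myofibroblasts, 304 (0.17 labelled sham and 0.01 labelled UUO) and Pdgfrb 1293. The median over all ranked genes was 0.0068.

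Fibroblast-class cells were clustered in each library without the 7 members, which gave 10 clusters labelled sham and 6 labelled UUO, named here by library and number. Sham clusters 3 and 6 and UUO cluster 4 had median depths far under that of their class (31.4%, 20.8% and 27.2%) and are led by ribosomal pseudogenes, mitochondrial genes or a haemoglobin gene. They hold 23.2% and 15.0% of the fibroblast class and stay unnamed. Other clusters are called by their leading genes, and no cell type name is given to them.

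The highest collagen levels per UMI lay in a pair of small clusters of the sham-labelled library. Sham cluster 7 (167 cells), led by Meg3, Sfrp4, C3 and Ptx3, held summed members at 25974 CPM (25726 to 26224), and sham cluster 10 (31 cells), led by Ccl11, Car3, Ccl8 and Foxf1, at 18456 CPM (17932 to 18991). Xist cells and Y-linked cells made up 21.0% and 29.9% of sham cluster 7, and 25.8% and 45.2% of sham cluster 10. In the whole class they made up 57.3% and 17.0%, and in no other sham cluster did Y-linked cells outnumber Xist cells. Cluster and animal were not separated. The largest cluster, sham cluster 1 (2343 cells; Ptn, Serpina1b, Clca3a1 and Hpgd), held 6465 CPM (6431 to 6500). Between them stood sham cluster 2 (Srgn, Cxcl14, Wnt2 and Igfbp5) at 8922 CPM, sham cluster 4 (Gpm6a, Cxcl12, Cntn1 and Prom1) at 9742 and sham cluster 5 (Rxfp1, Igfbp3, Penk and Ramp3) at 10720. Sham cluster 8, led by histone and cell cycle genes, stood at 8805 CPM and sham cluster 9, led by interferon-response genes such as Cxcl10 and Ifit3, at 8175. The shallow sham clusters 3 and 6 stood at 14212 and 5294 CPM. From the lowest cluster to the highest the sum differed 4.91-fold. Most collagen UMIs came from the large clusters: of 603557 member UMIs of the class, sham cluster 2 gave 179511, sham cluster 1 132688 and sham cluster 4 110285, against 41979 from sham cluster 7 and 4701 from sham cluster 10.

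The UUO-labelled library had a lower ceiling. UUO cluster 2 (194 cells), led by Mfap4, Mmp3, Bace2 and Fmod, held 7233 CPM (7086 to 7381), UUO cluster 5 (45 cells; Car3, Foxf1, Moxd1 and Cyp2e1) 6210 CPM (5934 to 6496) and UUO cluster 3 (136 cells; Cxcl13, Dlk1, Ptx3 and Fst) 5869 CPM (5732 to 6008). UUO cluster 1 (222 cells; Serpina1d, Serpina1b, Adap2os and Cpm), the largest, held 2333 CPM (2246 to 2423), close to the shallow UUO cluster 4 at 2215 CPM (2028 to 2416). UUO cluster 6, 14 cells led by Pcp4, Pax8 and Ankrd1, held 657 CPM (471 to 891) from 41 UMIs. Pdgfra stood at 16.1 CPM there, against 108 to 330 CPM in the other UUO clusters. The 11-fold range in this library rests on those 14 cells, since a coarser clustering gave 5 clusters and a 3.79-fold range.

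**Figure D3:**
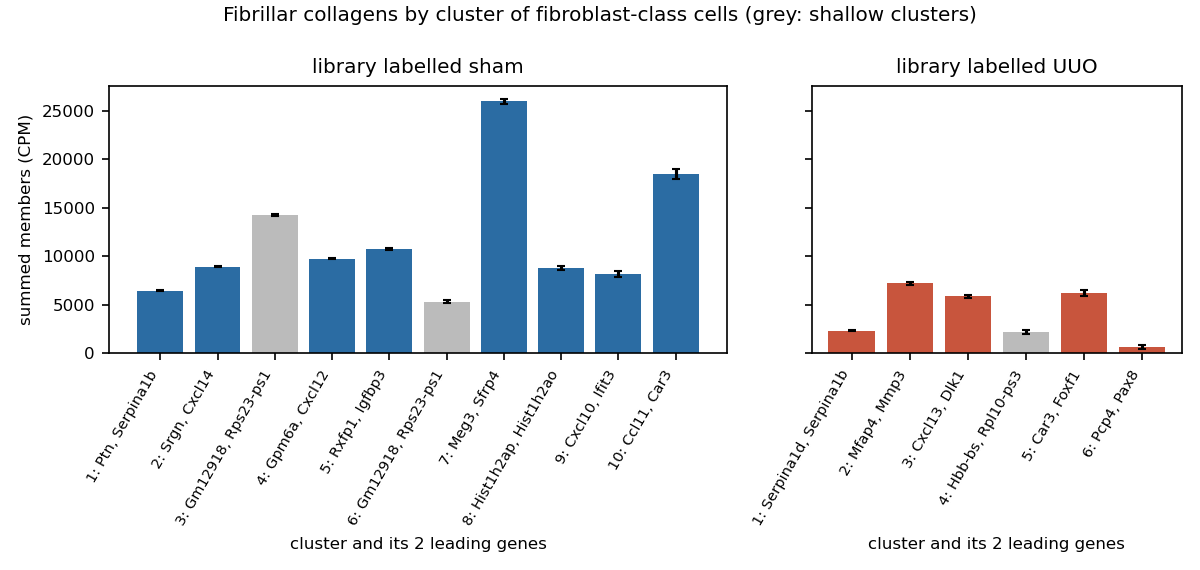
Summed CPM of the 7 genes in each cluster of fibroblast-class cells, with exact 95% Poisson intervals and the 2 leading genes of each cluster under the bars (grey bars are the shallow clusters). Sham cluster 7 stands highest at 25974 CPM, and no UUO cluster passes 7233 CPM.

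Acta2 and Postn stood at opposite ends of the range in the Ptx3 clusters. In sham cluster 7, Acta2 stood at 257 CPM, the lowest of the 10 clusters, and Postn at 459 CPM, the highest. In UUO cluster 3, Acta2 stood at 110 CPM, the lowest of the 6, and Postn at 345 CPM, the highest. Acta2 peaked in sham cluster 4 at 2793 CPM, where Postn was 135 CPM and the summed collagens 9742 CPM. Nkd2 was highest in sham cluster 5 at 278 CPM and stood at 31.6 CPM in sham cluster 7. Pdgfra and Pdgfrb stood at 194 and 98.4 CPM in sham cluster 7, against 182 and 350 CPM in sham cluster 1.

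Chain balance varied by cluster, in part alike in both libraries. The Car3 and Foxf1 clusters had the lowest Col3a1 per Col1a1 among clusters with more than 14 cells, at 0.600 (0.556 to 0.647) in sham cluster 10 and 0.449 (0.398 to 0.506) in UUO cluster 5. Elsewhere this ratio ran from 1.21 (1.20 to 1.23) in sham cluster 1 to 1.90 (1.87 to 1.93) in sham cluster 4, and from 1.10 (1.05 to 1.16) in UUO cluster 2 to 1.79 (1.69 to 1.90) in UUO cluster 3. UUO cluster 6 gave 0.357 (0.101 to 1.05) from 19 UMIs. Sham cluster 10 and UUO cluster 5 shared 4 of their 10 leading genes, Car3, Foxf1, Aard and Bmp5. Col1a1 per Col1a2 was 0.834 (0.823 to 0.846) in sham cluster 1 and 0.861 (0.780 to 0.951) in UUO cluster 1, which share Serpina1b and Clca3a1 among their leading genes. Sham cluster 9 was lower still at 0.790 (0.714 to 0.873). That ratio was less alike in the Car3 and Foxf1 clusters, at 1.09 (1.02 to 1.17) in sham cluster 10 and 1.56 (1.4 to 1.74) in UUO cluster 5, and it was 1.27 (1.24 to 1.30) in the shallow sham cluster 3. Col5a1 per Col5a2 stayed between 0.308 and 0.561 in the 10 sham clusters. In UUO clusters 1 to 5 it lay between 0.794 and 1.45, with intervals from 0.385 to 3.35, and UUO cluster 6 had 3 Col5a1 UMIs and no Col5a2 UMI.

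**Figure D4:**
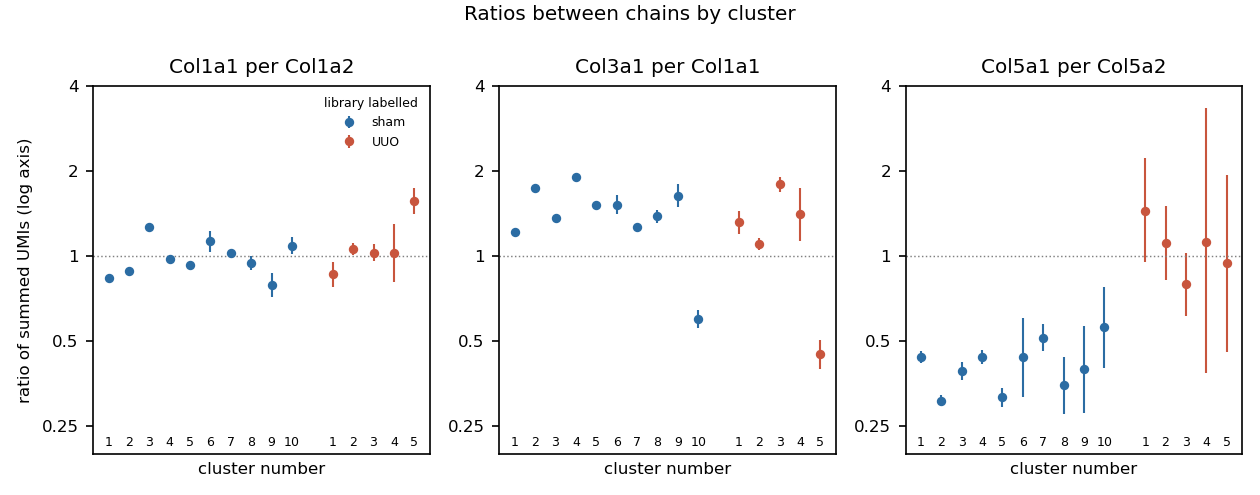
Ratio of summed UMIs between chains (log axis) in each cluster of the 2 libraries, with exact 95% intervals and a dotted line at 1; UUO cluster 6 (14 cells) is left out. Col3a1 per Col1a1 dips to 0.600 in sham cluster 10 and 0.449 in UUO cluster 5, and Col5a1 per Col5a2 lies below 1 in all 10 sham clusters.

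Col5a3 was uneven in both libraries. It stood at 38.4 CPM (29.4 to 49.2) in sham cluster 7 and at 66.6 CPM (52.7 to 83.0) in UUO cluster 3, the clusters that have Ptx3 among their leading genes. The other sham clusters ran from 2.66 to 12.6 CPM and the other UUO clusters from 0 to 8.64. A Col5a3 UMI was found in 22.8% of the 167 cells of sham cluster 7 and in 30.9% of the 136 cells of UUO cluster 3. UUO cluster 3 gave 79 of the 95 Col5a3 UMIs of its class and makes up 18.9% of its cells, and sham cluster 7 gave 62 of 559 and makes up 2.09%. Between these clusters Col5a3 was 1.74-fold higher in the one labelled UUO, where the whole class differed 2.63-fold. Between the Clca3a1 clusters (sham 1 and UUO 1) the ratio of sham over UUO was 0.853 (0.400 to 2.17), from 7 UMIs labelled UUO.

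Apart from Col5a3 and Col27a1, each member was lower in the UUO-labelled cluster of each matching pair, where clusters matched if they shared a leading gene and neither was shallow. The shallow sham cluster 3 and UUO cluster 4, which share Gm29216, were left out. Summed members were 2.77-fold higher (2.67 to 2.88) in sham cluster 1 than in UUO cluster 1, 3.82-fold (3.68 to 3.97) in sham cluster 2 than in UUO cluster 1, 4.43-fold (4.31 to 4.54) in sham cluster 7 than in UUO cluster 3 and 2.97-fold (2.82 to 3.14) in sham cluster 10 than in UUO cluster 5. The first 3 of these pairs rest on 1 or 2 shared leading genes, and the pair 10 and 5 on 4. Col5a2 differed most in 3 of the 4 pairs, at 7.32-fold, 10.9-fold and 7.14-fold, and 4.88-fold in the pair 7 and 3, where Col1a1 (5.21-fold) and Col1a2 (5.24-fold) differed more. The 7.32-fold and 10.9-fold values rest on the same 40 Col5a2 UMIs of UUO cluster 1. Col27a1 differed 1.03-fold (0.686 to 1.60) in the Clca3a1 pair.

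**Figure D5:**
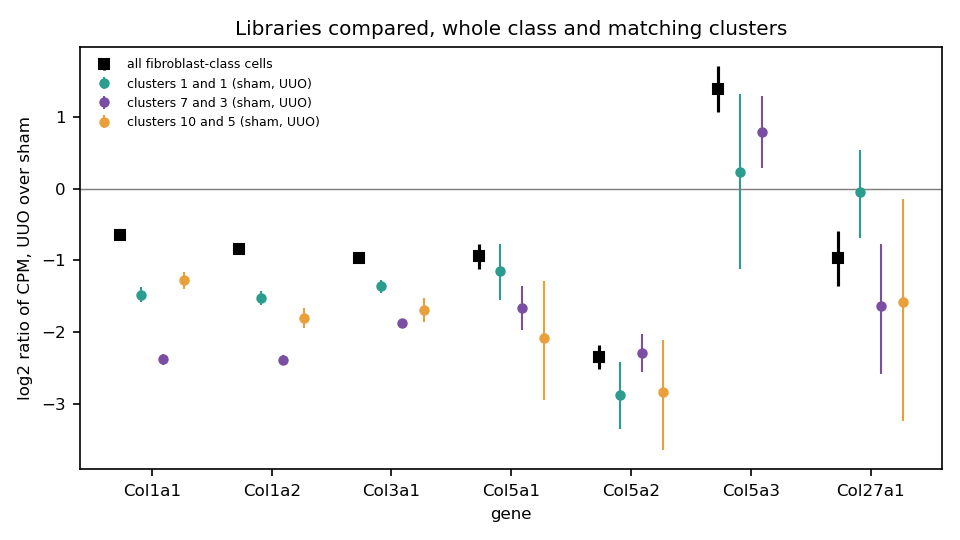
Log2 ratio of CPM, UUO over sham as labelled, for each gene in the whole fibroblast class (squares) and in 3 matching pairs of clusters (circles), with exact 95% counting intervals and no CPM added. The pair of sham cluster 2 and UUO cluster 1 is not drawn. Col5a3 lies above 0 in the whole class and in the pair 7 and 3, and the pair 10 and 5, with 1 and 2 Col5a3 UMIs, is not drawn for that gene.

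Genes that make, export, trim and break down fibrillar collagen were read from lists of 66 genes, 44 of which reached 10 CPM in a library. Of these, 5 stood at least 1.5-fold above and 12 at least 1.5-fold below their sham-labelled level in the fibroblast class labelled UUO, and 27 lay within 1.5-fold. Over all genes tested, 19.5% were that much higher and 12.4% that much lower. The median log2 ratio was -0.35 for the lists and -0.02 over all genes, and nothing particular to the lists is read from these counts.

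Most intracellular assembly genes lay within 1.5-fold, as did most of all genes tested. Of 18 hydroxylation, folding and glycosylation genes, 14 did, 4 were lower in the UUO-labelled library (12.4% of all genes were) and 0 were higher (19.5% of all genes were), with a median log2 ratio of -0.39. P4ha3, a prolyl hydroxylase subunit, had 3 UMIs labelled UUO against 1288, a ratio of sham over UUO of 27.7 (9.47 to 135). Fkbp10, a collagen-folding isomerase, was 2.09-fold higher in the sham-labelled library, P4hb 1.87-fold and P3h1 1.68-fold. P4ha1 and P3h3 lay within 1.5-fold, at 86.6 against 66.9 CPM and 198 against 157 CPM (UUO against sham), as did Serpinh1 at 1360 against 1772 CPM. Of 7 export genes, 2 were at least 1.5-fold higher in the UUO-labelled library and 0 were lower. Mia2, which helps load procollagen into transport carriers, was 2.26-fold higher (2.05 to 2.49) in the UUO-labelled library and Creb3l1, a transcription factor of secretory genes, 1.93-fold (1.75 to 2.13), while Sar1b and Creb3l2 lay within 1.5-fold at log2 ratios of -0.36 and -0.32.

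Extracellular processing genes went both ways. Bmp1, the protease that removes the C-terminal propeptide, was 2.93-fold higher (2.61 to 3.29) in the sham-labelled library. Pcolce2, an enhancer of that step, was 30.3-fold higher (27.3 to 33.7) in the UUO-labelled library, at 248 against 8.20 CPM. Pcolce, its abundant relative, stood at 1393 CPM labelled UUO and 974 labelled sham, and Adamts2 at 233 and 262. Among crosslinking oxidases, Lox was 4.42-fold higher (3.90 to 5.04) and Loxl2 1.63-fold (1.46 to 1.82) in the sham-labelled library. Loxl1, at 344 CPM labelled UUO and 305 labelled sham, and Loxl3, at 35.4 and 47.5, lay within 1.5-fold.

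Collagens that coat fibrils split as well. Col12a1 was 8.18-fold higher (7.31 to 9.19) in the sham-labelled library, at 589 against 72.0 CPM. Col14a1, a related fibril-coating chain, was 4.02-fold higher (3.82 to 4.23) in the UUO-labelled library, at 441 against 110 CPM. Col16a1 had a log2 ratio of -0.56, within the threshold. None of the 4 fibrillar chains outside the 7 members reached 10 CPM: Col11a1 had 480 and 7 UMIs, Col24a1 33 and 1, Col11a2 16 and 2, and Col2a1 9 and 1 in the libraries labelled sham and UUO.

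Receptors and degradation genes closed the list. Itga1, an integrin chain that binds collagen, was 1.75-fold higher (1.64 to 1.88) in the UUO-labelled library, and Mrc2, an uptake receptor for collagen fragments, 1.75-fold (1.57 to 1.95) in the sham-labelled library. The receptor kinases Ddr1 and Ddr2 lay within 1.5-fold, at log2 ratios of -0.37 and 0.43. All 3 degradation genes that reached 10 CPM were at least 1.5-fold higher in the sham-labelled library, as were 12.4% of all genes tested. Mmp14 was 1.95-fold higher (1.79 to 2.12), Ctsk 1.76-fold (1.63 to 1.89) and Mmp2 1.73-fold (1.62 to 1.84). With 3 genes, nothing particular to degradation is read from this count.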

How the data were processed

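The authors deposited expected counts of UMIs, 1 matrix of cells by genes for each library, with no scaling. Salmon 0.13.1 with alevin and the mm10 build produced them, per the submitters' processing notes. How cell barcodes were selected upstream: not given in the sources used here. Alevin shares UMIs that match several genes, so values need not be whole. The members and gene lists were chosen with earlier results of these data known, and the class rule was set after seeing the data.

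Cells with at least 500 UMIs, 300 genes and at most 20% mitochondrial UMIs were kept, 10656 labelled sham and 1052 labelled UUO. Those with the highest doublet scores (Scrublet's score reimplemented, expected rate 0.06, 0.8% per 1000 cells) were removed, 908 and 8. Within 3 to 5 marker UMIs, near the class minimum, lay 469 and 35 fibroblast-class cells. A further 338 and 65 cells stayed unassigned because fibroblast markers led by under 2 times. Fibroblast-class cells of each library were clustered by the Leiden method (resolution 0.5, 20 neighbours, 30 principal components, 2000 variable genes) without the members.

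Expected counts were summed per class, rounded and scaled to CPM. With 1 library per group there is no test and no p-value, and cells are not replicates. Ratios carry exact conditional binomial intervals, levels exact Poisson intervals and shares Clopper-Pearson intervals, at 95%. Log2 ratios and counts of genes past 1.5-fold use 5 CPM added, and folds in the text do not. Genes were compared at 10 CPM or more in either group. Levels of members were given whatever their height. A count of 0 was set against 3 counts over the class.

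Named genes are the members, the 2 largest and 2 smallest log2 ratios of each pathway list, the 10 genes most like the summed members, up to 4 leading genes per cluster, and Acta2, Postn, Nkd2, Pdgfra and Pdgfrb. Other pathway genes past 1.5-fold, Serpinh1, Spp1, Timp1 and fibrillar chains below 10 CPM were named after their values were seen. Intervals were tested on simulated data for the UUO over sham comparison and held the simulated ratio in 95.5% of 8186 genes without a change and for 90% to 98% of 50 genes at each of 4 changed folds. The simulated counts were Poisson draws, the model behind the intervals. This checks the calculation and cannot show how well the intervals hold where counts vary between cells or animals. Analyses used Python 3.11.15, numpy 2.4.6, scipy 1.17.1, scanpy 1.11.5 and igraph 0.11.9. Of the gene entries, 52806 were found in GENCODE M21.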

Additional observations from a re-analysis of the deposited data

How the results depend on the processing

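No paired analysis was possible because there is 1 library per group. Each member kept the sign of its log2 ratio (UUO over sham, fibroblast class) in all 14 alternatives, or 13 for Col5a3 and Col27a1, which the 50 CPM minimum left out. Leaving out shallow clusters and subtracting the endothelial level were chosen after seeing the data. The median log2 ratio of the members, -0.83, became -1.04 over all retained cells, -0.99 with equal weight for each cell, -0.78 in Xist cells, -0.88 in Y-linked cells, -0.75 scaled by the median ratio, -0.92 with 1 CPM added, -0.90 at 50 CPM or more (0 members higher), -0.76 without shallow clusters and -0.70 with the endothelial level subtracted. Members at least 1.5-fold lower, 6 of 7, were 4 in Xist cells and with the endothelial level subtracted (Col1a1 and Col27a1 lost in both), 5 when scaled by the median ratio and without shallow clusters (Col1a1 lost in both), and 5 at 50 CPM or more, where Col27a1 was not tested. The share of fibroblast-class UMIs labelled sham, 0.919%, was 0.841% over all retained cells, 0.937% with equal weight, 0.909% at 10% mitochondrial UMIs, 0.926% with doublets kept, 0.887% in Xist cells, 0.944% in Y-linked cells, 0.890% without shallow clusters and 0.789% with the endothelial level subtracted. That labelled UUO, 0.506%, was 0.401%, 0.450%, 0.495% (Y-linked cells), 0.522% (without shallow clusters) and 0.469% (endothelial level subtracted). Col1a1 per Col1a2 labelled sham passed to the other side of 1 with equal weight, at 1.01. It was 0.929 both at 10% mitochondrial UMIs and in Xist cells, 0.906 without shallow clusters and 0.959 with the endothelial level subtracted. Labelled UUO it was 1.13 with equal weight and 1.01 in Y-linked cells. Col3a1 per Col1a1 labelled sham was 1.47 with equal weight, 1.55 in Xist cells, 1.54 in Y-linked cells, 1.55 without shallow clusters and 1.5 with the endothelial level subtracted, and labelled UUO 1.14 with equal weight. Col5a1 per Col5a2 labelled sham was 0.392 in Xist cells, 0.357 in Y-linked cells and 0.413 with the endothelial level subtracted, and labelled UUO 0.773 in Xist cells. The median log2 ratio of fibroblast over endothelial class labelled sham, 2.73, was 2.28 with doublets kept and 3.15 in Y-linked cells. Labelled UUO, 2.45, it was 2.31 with equal weight, 2.46 at 1000 UMIs, 2.43 at 10% mitochondrial UMIs, 2.44 with doublets kept, 2.47 with the marker minimum doubled, 2.46 with haemoglobin at most 1%, 2.81 in Xist cells, 2.60 in Y-linked cells and 2.50 without shallow clusters. Thinning to 1000 UMIs took the shares of cells labelled sham to 83.1% (Col1a1), 85.3% (Col1a2), 89.5% (Col3a1), 12.7% (Col5a1), 29.1% (Col5a2), 0.699% (Col5a3) and 2.98% (Col27a1), and those labelled UUO to 58.0%, 61.3%, 62.9%, 7.36%, 5.83%, 2.15% and 2.15%. The range of summed members over clusters labelled sham, 4.91-fold, was 4.47-fold at Leiden resolution 0.8, and that labelled UUO, 11-fold, was 3.79-fold at resolution 0.3. Causes of these shifts were not tested, other than the lower depth made by thinning. The intervals and alternatives bear on counting and processing only, and no setting replaces a second library per group. In the UUO-labelled library, Col5a3 and Col27a1 rest on 95 and 61 UMIs, and values of its smallest cluster on 41.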
